A study of Mus musculus with 12 samples.

Results

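The sites described here were positions listed as bound by TET2 in mouse acute myeloid leukemia (AML) cells, overlapping no listed TET2 site of a second myeloid culture, and lying in or at a protein-coding gene. They were chosen by 2 deposited site lists and the coordinates of protein-coding genes. The AML sites on chromosomes 1 to 19 were merged where they overlapped, and sites sharing any base with a myeloid site were set aside. Sites were kept whose midpoint fell inside a gene or within 1 kb of its start or end coordinate. This left 955 of 6778 merged AML sites, called AML-only sites in what follows. Another 958 AML-only sites were intergenic, and 4865 AML sites were shared with the myeloid list, 2718 of them in or at a gene. The myeloid list held 18533 merged sites, of which 9217 in or at genes overlapped no AML site and are called myeloid-only.

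TET2 was mapped by chromatin immunoprecipitation and sequencing (ChIP-seq) in 12 libraries, 8 of them made with a rabbit polyclonal antibody against the N-terminal part of the protein and 4 of them controls. The AML cells were Npm1+/cA; Fl3+/ITD (2 TET2 libraries, 1 input and 1 IgG library), with 2 further TET2 libraries from Npm1+/cA; Fl3+/ITD; Tet2-/- cells. The myeloid cells were Tet2fl/fl; AML1-ETO (2 TET2 libraries, 1 input and 1 IgG library) or Tet2-/-; AML1-ETO (2 TET2 libraries), and every myeloid library carried the MigR1-AML1-ETO transgene, which no AML library carried. Cell type, driver mutation and transgene therefore cannot be told apart in any comparison of the lists. The title of the study places its question at enhancers and at the recruitment of transcription factors. Each list holds positions only, so no site has a value per library, the depth is unknown, and there is no replicate error; the cell types could not be checked against marker genes. Pooling of replicates and the use of knockout and control libraries in calling sites are not described in the labels or file headers. Absence from the myeloid list does not show absence of TET2 in those cells.

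TET2 is a dioxygenase that oxidizes 5-methylcytosine, the first step of active DNA demethylation, and its gene is often mutated in myeloid leukemia. Unlike TET1 and TET3 it has no CXXC domain of its own to bind DNA, and it reaches chromatin largely through partner proteins. Promoters rich in CG pairs are mostly unmethylated, while CG-poor promoters and distal enhancers are where methylation more often varies between cell types.

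The promoters of 8 genes whose start of transcription lay under an AML-only site are shown as examples of CG-poor and CG-rich promoters under such sites. Each is the 250 bases before the start, 5′ to 3′ on the gene's strand, from RefSeq on GRCm38.p6, which has the coordinates of mm10, with CG pairs in capitals. Mefv, Tifab and Wfdc17 were chosen after their values were seen. The 8 are a choice from 27 genes with a covered start, and the share of immune genes among the 27 was not counted. Other CG-poor covered starts, those of Glmp, Gm1110, Olfr201 and Tmigd1 among them, are not shown.
Bpi (chr2:158257991-158258240, plus strand): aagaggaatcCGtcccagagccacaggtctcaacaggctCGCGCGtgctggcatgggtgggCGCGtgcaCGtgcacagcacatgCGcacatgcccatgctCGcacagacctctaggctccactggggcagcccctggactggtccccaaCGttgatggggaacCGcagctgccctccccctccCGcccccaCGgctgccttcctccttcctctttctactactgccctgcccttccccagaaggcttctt
C1qc (chr4:136892915-136893164, minus strand): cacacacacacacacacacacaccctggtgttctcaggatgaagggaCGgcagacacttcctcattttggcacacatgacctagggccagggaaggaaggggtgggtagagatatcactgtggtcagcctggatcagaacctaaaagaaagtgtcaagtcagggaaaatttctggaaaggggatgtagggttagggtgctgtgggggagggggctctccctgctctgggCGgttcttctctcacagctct
Casp4 (chr9:5308599-5308848, plus strand): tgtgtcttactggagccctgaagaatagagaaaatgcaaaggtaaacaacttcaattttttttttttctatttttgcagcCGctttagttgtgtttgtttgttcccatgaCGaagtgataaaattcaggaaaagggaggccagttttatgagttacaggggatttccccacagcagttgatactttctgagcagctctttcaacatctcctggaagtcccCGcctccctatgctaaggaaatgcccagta
Mefv (chr16:3718125-3718374, minus strand): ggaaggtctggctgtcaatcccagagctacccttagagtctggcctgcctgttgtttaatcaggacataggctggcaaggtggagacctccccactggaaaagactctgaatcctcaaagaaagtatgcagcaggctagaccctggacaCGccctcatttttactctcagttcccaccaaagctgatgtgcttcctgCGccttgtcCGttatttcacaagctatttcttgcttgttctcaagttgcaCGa
Tifab (chr13:56178886-56179135, minus strand): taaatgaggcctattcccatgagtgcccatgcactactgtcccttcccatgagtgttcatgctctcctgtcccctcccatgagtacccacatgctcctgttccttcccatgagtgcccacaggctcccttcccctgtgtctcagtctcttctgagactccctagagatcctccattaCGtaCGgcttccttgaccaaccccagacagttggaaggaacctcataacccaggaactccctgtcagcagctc
Wfdc17 (chr11:83703806-83704055, plus strand): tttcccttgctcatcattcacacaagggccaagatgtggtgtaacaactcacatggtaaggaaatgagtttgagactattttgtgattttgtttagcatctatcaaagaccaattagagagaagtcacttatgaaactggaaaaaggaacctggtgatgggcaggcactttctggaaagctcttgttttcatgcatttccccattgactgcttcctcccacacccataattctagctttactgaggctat
Cbx3 (chr6:51471002-51471251, plus strand): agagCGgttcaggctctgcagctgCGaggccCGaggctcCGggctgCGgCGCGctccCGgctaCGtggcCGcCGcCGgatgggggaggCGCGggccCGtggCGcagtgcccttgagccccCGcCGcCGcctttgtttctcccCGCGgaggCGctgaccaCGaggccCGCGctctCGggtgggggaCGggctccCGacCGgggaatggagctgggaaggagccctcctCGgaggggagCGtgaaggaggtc
Rps19bp1 (chr15:80264307-80264556, minus strand): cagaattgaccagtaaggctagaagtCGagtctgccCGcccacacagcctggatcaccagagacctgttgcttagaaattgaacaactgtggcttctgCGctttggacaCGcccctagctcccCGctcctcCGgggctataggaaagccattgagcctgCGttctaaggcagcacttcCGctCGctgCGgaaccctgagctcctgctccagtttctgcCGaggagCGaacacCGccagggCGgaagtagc

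The number of CG pairs in these 250 bases ran from 0 to 31. Bpi, which encodes an antibacterial protein of neutrophil granules, held 13. C1qc, the C chain of complement C1q, held 2, Casp4, an inflammatory caspase, held 3, and Mefv, which encodes pyrin, held 4. Tifab held 2, and Wfdc17 held 0. In contrast Cbx3, the heterochromatin protein HP1 gamma, held 31. Rps19bp1 held 14, near the 13 of Bpi.

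Few AML-only sites covered a start of transcription. Of 931 AML-only sites on the chromosomes with promoter sequences, 27 (2.90%, exact 95% interval 1.92 to 4.19) covered one, against 258 of 2647 shared sites (9.75%, 8.64 to 10.9) and 2756 of 8963 myeloid-only sites (30.8%, 29.8 to 31.7). The odds ratio was 0.277 against shared sites (0.178 to 0.416, adjusted p = 1.05e-12, Fisher's exact test, two-sided) and 0.0673 against myeloid-only sites (0.0440 to 0.0989, adjusted p = 7.17e-99, Fisher's exact test). These intervals and p-values cover the counting of sites only, and since sites cluster they are not independent. With 1 list per cell type, no replicate stands behind any difference. Starts of genes with no matched promoter could not be counted. Hosts of AML-only sites were longer than those of shared sites, and covered starts were not compared among long hosts alone.

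The 27 sites covered the starts of 27 genes, and 26 genes whose starts lay under sites of a single class were compared. The ratio of observed to expected CG pairs (CG pairs times window length, divided by the product of C and G counts, over 250 bases before to 50 after the start) had a median of 0.446 in these genes (quartiles 0.267 and 0.733). It was 0.727 (0.308 and 0.902) for 255 genes under shared sites, 0.824 (0.694 and 0.95) for 2982 genes under myeloid-only sites and 0.582 (0.238 and 0.824) for all 16457 genes with a promoter in the table. The lowest ratios were 0.0758 for Wfdc17, 0.0926 for Sirpb1b, 0.0978 for Tifab, 0.121 for Ifitm6 and 0.144 for C1qc. High ratios were found for Wdr37 (0.928), Tanc1 (0.889), N6amt1 (0.877), Cbx3 (0.842) and Rps19bp1 (0.824), so the AML-only group itself ran from CG-poor to CG-rich promoters. Between these lay Casp4 (0.378 and 0.384 at 2 starts), Bpi (0.481), Ap3s2 (0.638) and Eno1, a glycolytic enolase (0.580 to 0.712 over 3 starts). The gene left out of the 26, 4931406C07Rik, had a ratio of 0.124 at its covered start. Of these genes, Sirpb1b, Ifitm6, Wdr37, Tanc1 and N6amt1 were named after their values were seen.

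A ratio over 0.6 was reached by 11 of the 26 genes (42.3%, 23.4 to 63.1), against 152 of 255 under shared sites (59.6%, 53.3 to 65.7) and 48.5% of all genes. The difference from shared sites did not pass the test (odds ratio 0.498, 0.198 to 1.21, adjusted p = 0.0985, Fisher's exact test). The difference from genes under myeloid-only sites, of which 84.7% (83.4 to 86.0) were over 0.6, did pass (odds ratio 0.132, 0.0545 to 0.310, adjusted p = 1.14e-06, Fisher's exact test). Of the 26 genes, 17 held no myeloid site at all, Bpi, C1qc and Casp4 among them. Of all coding genes 63.3% held none, so the count is near that share.

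**Figure D1:**
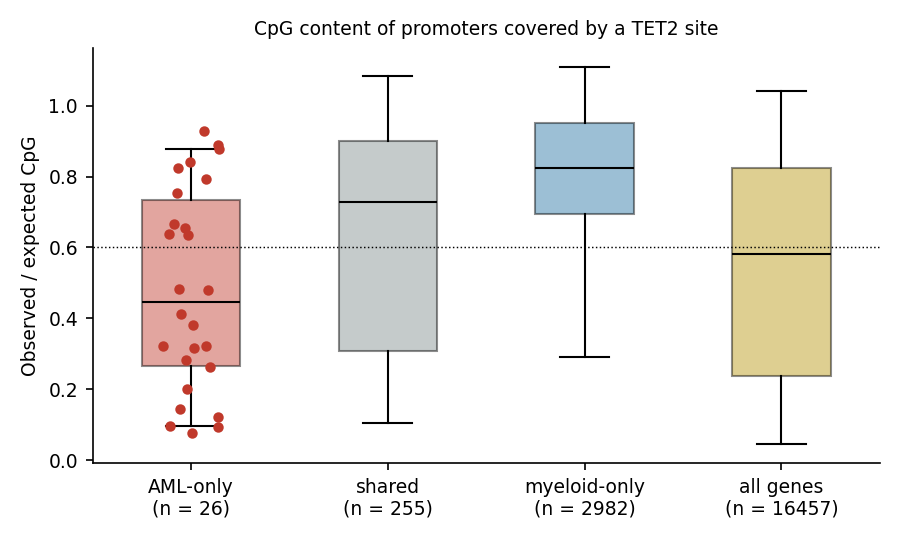
Ratio of observed to expected CG pairs around starts of transcription covered by a TET2 site, by class of site, and for all genes with a promoter in the table. Boxes give quartiles and median, whiskers reach the 5th and 95th percentiles, points are the 26 genes under AML-only sites and the dotted line marks 0.6; 15 of the 26 points lie at or below it.

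Motif letters were searched on both strands of the same windows, without regard to overlap between different motifs. The ETS core GGAAGT was found in 13 of the 26 genes (50.0%, 29.9 to 70.1), in 50.2% of genes under shared sites, 37.6% under myeloid-only sites and 28.0% of all genes. The RUNX core TGTGGT was found in 5 of the 26 (19.2%), namely Bpi, C1qc, Ifitm6, Tifab and Wfdc17, against 27.1%, 13.6% and 17.0% in the same order. The C/EBP palindrome TTGCNNAA was also found in 5 (19.2%), against 18%, 9.26% and 11.8%. An interferon response motif was first searched in a 10-letter form. It was held by Oas1c, Sirpb1b and Tmigd1, which are 3 of the 26 (11.5%, 2.45 to 30.15). The shares were 2.75% under shared sites, 2.72% under myeloid-only sites and 3.98% of all genes, inside that interval. The form GAAANNGAA, which lacks the last A of the longer one, was added after those values were seen. It was held by 4 of the 26 (15.4%, 4.36 to 34.9) and 9.39% of all genes, again inside the interval. The AP-1 motif TGANTCA was found in 1 of 26 and 8.23% of all, and the GATA factor motif AGATAA in 2 and 11.2%. The E-box CACGTG was found in 1 and 9.01%, and the cAMP response motif TGACGTNA in 0 (which allows a share of up to 13.2%) and 4.06%. A match describes letters in the window and is not a binding site.

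Among sites in or at genes, AML-only sites lay at gene ends less often than shared or myeloid-only sites. That sites lay in or at genes was fixed by the rule. A gene end, within 1 kb of either end coordinate, held 102 of the 955 (10.7%, 8.79 to 12.8), and the other 853 lay in gene bodies. The share was 18.1% (491 of 2718, 16.6 to 19.6) for shared sites and 39.9% (3680 of 9217, 38.9 to 40.9) for myeloid-only sites. The odds ratio was 0.542 against shared sites (0.428 to 0.683, adjusted p = 8.04e-08, Fisher's exact test) and 0.180 against myeloid-only sites (0.144 to 0.222, adjusted p = 1.61e-82, Fisher's exact test). Host genes of AML-only sites were long, and among sites whose hosts were all over 100 kb, a restriction added after the data were seen, the shares were 2.43% and 3.74% for AML-only and shared sites (odds ratio 0.642, adjusted p = 0.257, Fisher's exact test). Under the same restriction the difference from myeloid-only sites, at 10.6%, still passed (odds ratio 0.210, adjusted p = 4.41e-09, Fisher's exact test).

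The few gene-end sites were divided between the start and the end of transcription. Of 101 on the chromosomes with promoter sequences, 44 lay nearest a start, 48 nearest an end, and 9 could not be placed because the strand was not known. The share at a start was 47.8% (37.3 to 58.5) of those placed, against 82.3% (325 of 395, 78.2 to 85.9) of shared and 92.6% (2792 of 3015, 91.6 to 93.5) of myeloid-only gene-end sites. The odds ratios were 0.198 (0.118 to 0.330, adjusted p = 1.12e-10, Fisher's exact test) and 0.0734 (0.0465 to 0.116, adjusted p = 1.03e-27, Fisher's exact test).

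Examples from the end of transcription were named after their values were seen, except Fcgr3 and Tnfrsf8. They are immune genes picked from the 48 end-side sites, and the share of such genes among the 48 was not counted. Other end-side sites lay at Aldh3a2, Arpc5, Dhx15, Psat1 and Vapb. At Fcgr3, an Fc receptor for IgG, the site midpoint was 167 bp from the gene end, and at Pirb, an inhibitory receptor of myeloid cells, it was 9 bp. Lyz1, a lysozyme, had its midpoint 650 bp from the end, Ms4a7 232 bp, Ear2, an eosinophil-associated ribonuclease, 798 bp, and Tnfrsf8, which encodes CD30, 640 bp. On the start side, midpoints were 138 bp from the gene end at Bpi, 104 bp at C1qc, 80 bp at Casp4, 601 bp at Gpnmb, 826 bp at Cdk4 and 450 bp at Ptgs1. Gpnmb, Cdk4 and Ptgs1 were likewise named after their values were seen.

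**Figure D2:**
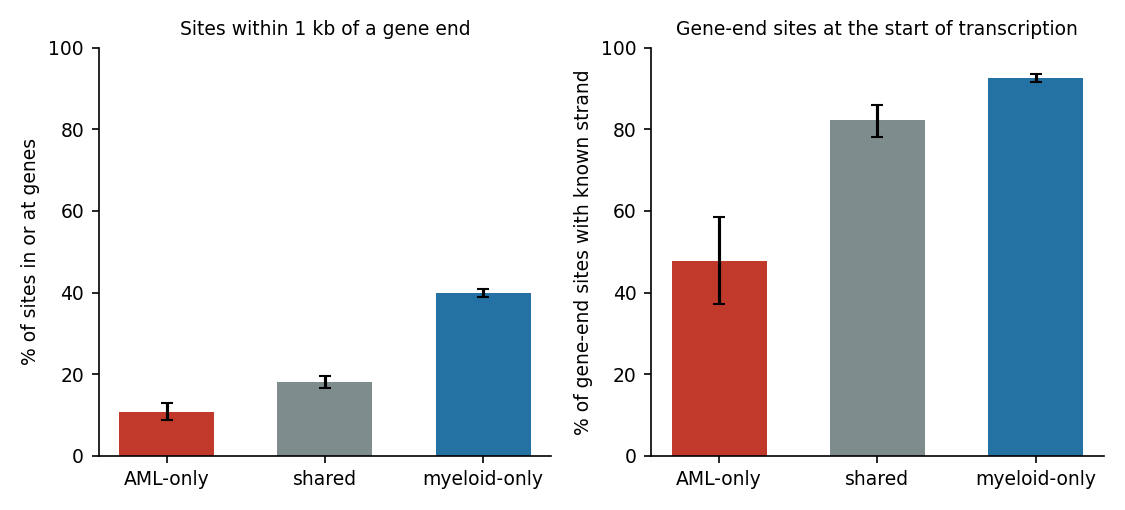
Left, the percentage of sites in or at genes that lay within 1 kb of a gene end; right, the percentage of gene-end sites with known strand whose nearest end was the start of transcription. Bars are the 3 classes of site and error bars exact 95% intervals; the AML-only bars (10.7% and 47.8%) are the lowest in both panels.

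The midpoint of an AML-only site was a median of 17.3 kb from the nearest gene end (quartiles 5.34 and 45.8 kb). Shared sites had a median of 11.6 kb (2.44 and 33.6 kb) and myeloid-only sites 3.23 kb (0.168 and 19.7 kb). Among gene-body sites, 599 of 853 AML-only sites (70.2%, 67.0 to 73.3) lay over 10 kb from every gene end, against 1443 of 2227 shared sites (64.8%, 62.8 to 66.8; odds ratio 1.28, 1.08 to 1.53, adjusted p = 0.00519, Fisher's exact test). Among sites whose hosts were all over 100 kb the difference turned, to 91.2% against 91.9% (odds ratio 0.905, adjusted p = 0.607, Fisher's exact test). It did not pass with gene ends of 2 kb (odds ratio 1.21, adjusted p = 0.0516, Fisher's exact test) or with all annotated genes (1.07, adjusted p = 0.368, Fisher's exact test).

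**Figure D3:**
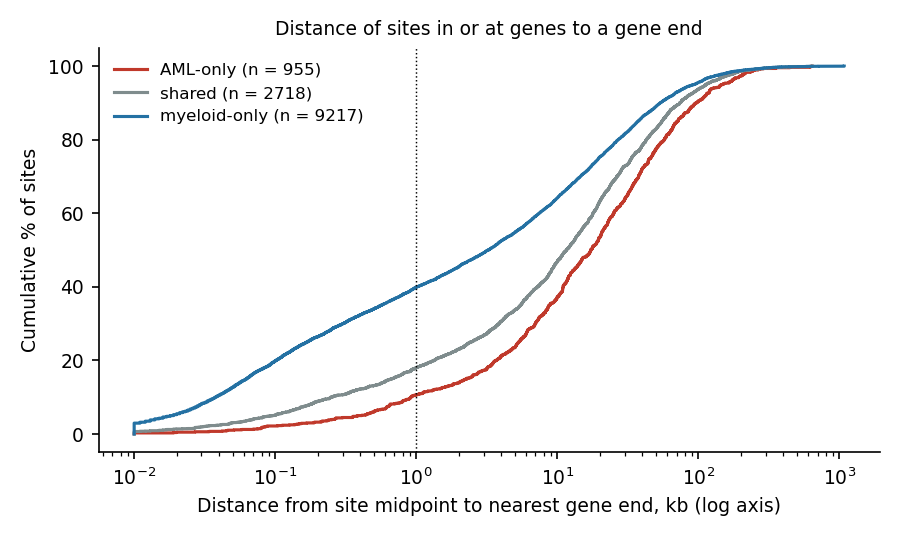
Cumulative percentage of sites by distance from the site midpoint to the nearest gene end, in kb on a log axis, for each class of site. The dotted line marks 1 kb and the shortest distances are drawn at the left edge; the AML-only curve lies to the right, with a median of 17.3 kb against 11.6 kb for shared and 3.23 kb for myeloid-only sites.

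AML-only sites were narrower than shared sites. Their median width was 706 bp (quartiles 680 and 747.5 bp), against 726 bp (691 and 777 bp) for shared sites and 700 bp (660 and 765 bp) for myeloid-only sites, whose width was not tested against theirs. Of the 955, 365 (38.2%, 35.1 to 41.4) were wider than 721 bp, the median of all merged AML sites, against 1441 of 2718 shared sites (53.0%, 51.1 to 54.9; odds ratio 0.548, 0.470 to 0.639, adjusted p = 9.47e-15, Fisher's exact test). Width was not independent of the rule, because a wider site has more bases that can overlap a myeloid site. The part of the rule in this difference was not tested. The narrowest width, 651 bp, was shared by 50 sites, those in Blzf1, Cdh4 and Dido1 among them. Wide sites lay in Eif3b (1468 bp), Agpat4 (1411 bp), Abcc8 (1321 bp) and Nbas (1244 bp). The sites in Agpat4 and Nbas were each merged from 2 deposited sites.

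AML-only sites had fewer AML neighbours than shared sites. Another AML site lay within 10 kb of 192 of them (20.1%, 17.6 to 22.8), against 682 shared sites (25.1%, 23.5 to 26.8; odds ratio 0.751, 0.624 to 0.902, adjusted p = 0.00257, Fisher's exact test). In 31 runs of AML sites with neighbours within 10 kb there were 2 or more AML-only members, 65 in all. The longest run by members was that of Gm40892, with 4 in 10.1 kb, followed by Enpep, which encodes aminopeptidase A, with 3 in 14.4 kb. The other 29 runs held 2 members, and those of Asap2, Mtus1 and Tle3, a Groucho-family corepressor, also held 2 shared sites.

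The gap from an AML-only site to the nearest myeloid site had a median of 17.9 kb (quartiles 5.68 and 56.2 kb). It was at most 1 kb for 72 sites (7.54%), at most 10 kb for 357 (37.4%) and at most 100 kb for 817 (85.5%). Values just inside the rule were gaps of 33 bp at Unc119, 43 bp at Tbl1xr1 and 81 bp at Cdkal1, and just outside it were overlaps of 40 bp at Zkscan6, 67 bp at Clmp and 85 bp at Atg10. On the gene margin, midpoints 968 bp (Pnpla3) and 952 bp (Atrnl1) from the gene were kept, and intergenic midpoints at 1041 and 1047 bp were not. The widest gaps were 1774998 bp in Unc5d, a netrin receptor, 1720833 bp in Pik3c2g and 1683590 bp in Aebp2. Both sites in Cd36, a scavenger receptor, lay over 1 Mb from a myeloid site (1139727 and 1142146 bp).

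**Figure D4:**
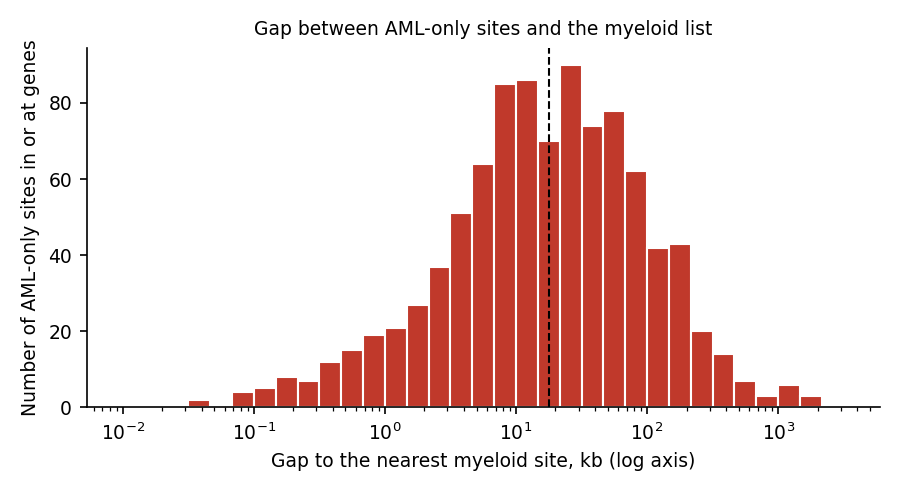
Number of AML-only sites in or at genes by gap to the nearest myeloid site, in kb on a log axis. The dashed line marks the median of 17.9 kb; 39 sites (4.08%) lay within 0.5 kb of a myeloid site and the largest gap was 1775 kb.

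The 955 sites fell in or at 846 genes, 4.09% of 20665 protein-coding genes, against 10.3% with a shared and 32.6% with a myeloid-only site. A single AML-only site was held by 737 genes, 2 by 86, 3 by 18 and 4 by 5. Hosts had a median length of 86.4 kb (quartiles 33.8 and 173 kb), against 17.5 kb over all coding genes and 51.6 kb for hosts of shared sites. An AML-only site was found in 1.00% of genes under 20 kb, 5.09% of those from 20 to 100 kb and 15.8% (14.3 to 17.3) of those over 100 kb, so length moved with every count of hosts; its part in the gene lists was not tested. For shared sites the same shares were 4.37%, 13.7% and 28.3%, and for myeloid-only sites 22.5%, 42% and 51.0%.

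Many hosts also held myeloid sites elsewhere. Of the 846, 302 (35.7%, 32.5 to 39.0) also held a shared site, which is 14.2% of the 2131 genes with one, and 595 (70.3%, 67.1 to 73.4) held a myeloid site of either kind, which 36.7% of all coding genes did. Counted by site, 693 of 955 AML-only sites (72.6%, 69.6 to 75.4) had another myeloid site in their host, against 2035 of 2718 shared sites (74.9%, 73.2 to 76.5; odds ratio 0.888, 0.75 to 1.05, adjusted p = 0.169, Fisher's exact test). The difference passed among sites whose hosts were all over 100 kb (81.0% against 89.1%, odds ratio 0.522, adjusted p = 9.09e-05, Fisher's exact test) and with all annotated genes (0.775, adjusted p = 0.000760, Fisher's exact test).

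The genes with 4 AML-only sites were Adtrp, Gm40892, Enpep, St8sia1 and Pde4d. Adtrp, which hydrolyses fatty acid esters of hydroxy fatty acids, held no shared and no myeloid site, and its 4 sites lay at chr13:41786447-41787173, chr13:41792666-41793374, chr13:41825338-41826135 and chr13:41827998-41829128. These were 726, 708, 797 and 1130 bp wide, all in the gene body, and 122322 to 163873 bp from the nearest myeloid site. Gm40892 likewise held no myeloid site. Enpep held 1 myeloid-only site, 445 bp from an AML-only one, and St8sia1, the GD3 ganglioside synthase, held 1 shared and 3 myeloid-only sites. Pde4d, a cyclic AMP phosphodiesterase whose gene is 1302 kb long, held 4 shared and 13 myeloid-only sites beside its 4.

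Of the hosts, 251 (29.7%) held no myeloid site, against 63.3% of all coding genes, and 20 of these held 2 or more AML-only sites. Myeloid sites were placed in genes by their own midpoints, and shared sites by the midpoint of the AML site. Ext1, a heparan sulfate polymerase, held 3 sites with gaps of 388094 to 436567 bp, and Nbas, which acts in vesicle transport from Golgi to endoplasmic reticulum, held 3. Agpat4, Ankrd55, Astn2, Cd36 and Cracd held 2 each. Among hosts with 3 sites, Atp8a2 and Slc16a7 held 1 myeloid-only site and no shared site, Lima1 and Tnfrsf8 1 shared site and no myeloid-only site, and Arl15, Gpc6, Prr5l and Rapgef4 1 of each. BC049352 held 2 AML-only sites and 1 shared site but counts among the 20, since no myeloid midpoint lay in or at it. The genes that define the cultures held no AML-only site. Tet2 held 2 myeloid-only sites, Npm1 1, Runx1t1 1, and Flt3 1 shared and 1 myeloid-only site, while Runx1 held 6 shared and 5 myeloid-only sites.

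Gene lists, some of whose genes are in more than 1 list, are described by the share of their genes with an AML-only site. That share was 4.09% over all genes, of which 10.3% held a shared and 32.6% a myeloid-only site. Among myeloid transcription factors 3 of 31 held one (9.68%, 2.04 to 25.8), while 45.2% held a shared site. These were Runx2 (2 AML-only sites), Cebpd, with a site 520 bp from a myeloid one, and Stat5b, with a site 284 bp away. Of stem, progenitor and leukemia genes 2 of 28 did (7.14%; Etv6 and Mef2c), and of genes often mutated in AML 2 of 25 (8.00%; Cbl and Etv6). Of cytokine signalling genes 30.8% held a shared and 71.8% a myeloid-only site. An AML-only site was held by 5 of the 39 (12.8%, 4.30 to 27.4). They were Spred2, an inhibitor of Ras signalling with 2 AML-only sites, Cbl, a ubiquitin ligase for receptor kinases, the phosphoinositide 3-kinase subunits Pik3r1 and Pik3r5, and Stat5b.

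Among markers of monocytes and macrophages 3 of 20 held an AML-only site (15%, 3.21 to 37.9), while 45% held a shared site. The interval of the AML-only share holds the 4.09% found over all genes. Marco and Msr1, both scavenger receptors, held 1 each and no myeloid site, with gaps of 232053 and 573707 bp, while Cx3cr1, the fractalkine receptor, held 1 beside 2 shared sites. Granule and neutrophil genes counted 1 of 21 (4.76%; Fcgr3, the Fc receptor; Bpi is not in the list), erythroid and megakaryocyte genes 1 of 15 (6.67%; Vwf) and T and NK cell genes 1 of 20 (5.00%; Tox). No AML-only site was found at 14 mast cell, basophil and eosinophil genes (which allows up to 23.2%; Ear2 is not in that list), 14 B cell genes, 12 dendritic cell genes (up to 26.5%), 20 DNA methylation genes (up to 16.8%) or 24 neuronal genes (up to 14.3%). Of the DNA methylation genes 20.0% held a shared and 55.0% a myeloid-only site. The neuronal genes had a median length of 965.5 kb, and 15.8% of all genes over 100 kb held an AML-only site.

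Of the lists made by symbol, protein kinase C and diacylglycerol kinase genes counted 3 of 19 (15.8%, 3.38 to 39.6), namely Prkce, Prkcb and Dgkd. The interval holds the 4.09% over all genes, and 47.4% of the list held a shared site. The median length of this list was 101.3 kb, and 15.8% of all genes over 100 kb held an AML-only site. Cyclic nucleotide enzymes counted 5 of 36 (13.9%, 4.67 to 29.5), with Pde4d, Pde11a, Pde4b and Pde5a among them and a median length of 104.2 kb. Of this list 38.9% held a shared site. Shares near the background were found for semaphorins and plexins (2 of 27, 7.41%; Plxnc1 and Sema6a), receptor tyrosine phosphatases (1 of 21, 4.76%; Ptprj), solute carriers (17 of 362, 4.70%; Slc16a7, Slc15a5, Slc24a3 and Slc37a3 with most) and potassium and calcium channels (5 of 117, 4.27%; Kcnh7, Kcnk13 and Cacna1b among them). The same held for interleukin genes (3 of 78, 3.85%; Il1f9, Il1r1 and Il1rap), cadherins (3 of 90, 3.33%; Cdh23, Cdh4 and Cdh17) and integrins (1 of 30, 3.33%; Itgb3).

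Ribosomal genes counted 5 of 169 (2.96%, 0.968 to 6.77), with the 4.09% over all genes inside the interval and a median length of 4.62 kb. Of these, Mrpl1, Mrpl15, Rps19bp1 and Rps6ka5 held 1 AML-only site each, as did Rps6kc1. The symbol rule also takes Rps19bp1, Rps6ka5 and Rps6kc1, which encode no ribosomal protein, so Mrpl1 and Mrpl15 were the ribosomal protein genes among the 5. Zinc finger genes counted 5 of 388 (1.29%, 0.420 to 2.98). Olfactory receptors counted 3 of 1104 (0.272%, 0.0561 to 0.792), namely Olfr1330, Olfr201 and Olfr872. The median lengths of these lists were 17.98 and 0.95 kb, and 1.00% of all genes under 20 kb held an AML-only site.

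**Figure D5:**
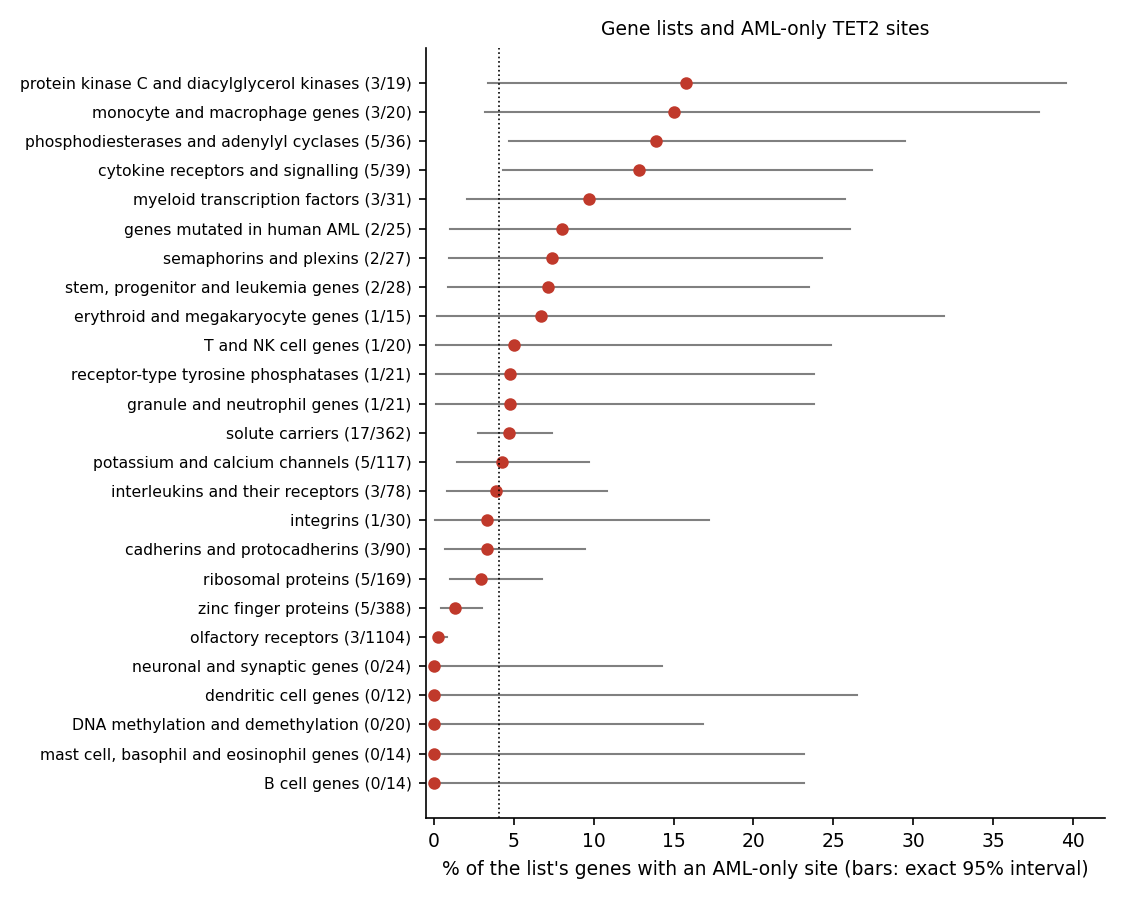
Percentage of the genes of each list described above with at least 1 AML-only site, with the count of genes in brackets. Points are shares, bars exact 95% intervals and the dotted line the 4.09% over all coding genes. The point for protein kinase C and diacylglycerol kinase genes (15.8%) lies to its right, with an interval that crosses it. The lists with 0 genes sit at the left edge.

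AML-only sites made up 26.0% (24.6 to 27.4) of AML sites in or at genes. By chromosome the share ran from 20.8% on chromosome 11 (16.0 to 26.1) to 32.2% on chromosome 6 (26.2 to 38.6) as the lowest and highest of 19 shares, and no test was made between chromosomes.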

How the data were processed

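Per the submitters' processing notes, the authors used Trimmomatic, Bowtie2 and MACS2 with mm10 (versions and thresholds: not given in the sources used here). For each cell type the authors deposited 1 site list, holding a chromosome, start and end per the file headers; whether starts count from 0 or 1 is not stated. Of 7002 AML and 19706 myeloid sites, 6877 and 19411 lay on chromosomes 1 to 19. Sites overlapping by at least 1 bp were merged within a list and called shared between lists. Genes and promoters came from RefSeq (GRCm38.p6); 16457 of 20665 genes (79.6%) matched a promoter, and promoters of chromosome 18 were not analysed here. Shares have exact Clopper-Pearson 95% intervals. Fisher's exact test (two-sided, scipy 1.17.1) was adjusted by Benjamini-Hochberg over 6 comparisons, and separately over 6 that were added once the reference tables had been seen; the code was tested on simulated data. Named genes were hosts with most sites, hosts lacking myeloid sites, extremes of width and gap, up to 4 per list (26 lists, 13 by name and 13 by symbol), covered starts and genes defining the cultures; 1 list and a few named genes are not reported here. Members and lists were chosen with earlier results of these data known, and the motif list was extended after its values were seen.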

Additional observations from a re-analysis of the deposited data

How the results depend on the processing

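Alternatives changed the gap that counts as shared, the gene margin, the distances for deep and neighbouring sites, the gene set and the chromosomes. Of 77 values for 10 results, 68 were classed as unchanged. These include every count of members (916 to 1195) and of host genes (813 to 1161), which have no direction or threshold to keep. The comparisons among the 68 kept their direction and their side of the threshold. For 4 results, on covered starts and on the start side of gene ends, no alternative was run. The share with another myeloid site in the host gene, which did not pass, passed when gaps of up to 500 bp counted as shared (odds ratio 0.828, adjusted p = 0.0292, Fisher's exact test), with all annotated genes (0.775), with X and Y (0.841, adjusted p = 0.0383, Fisher's exact test) and for hosts all over 100 kb (0.522). The difference in deep sites did not pass with gene ends of 2 kb (1.21) or all annotated genes (1.07), and it reversed for hosts over 100 kb (0.905). The gene-end difference from shared sites did not pass for hosts over 100 kb (0.642). With a CG ratio over 0.75, the difference from promoters under shared sites passed unadjusted (26.9% against 48.6%, odds ratio 0.390, p = 0.0396, Fisher's exact test). The settings on long hosts and on the CG ratio were chosen after seeing the data; the causes were not tested. No paired analysis was possible because the results come from site lists with no value per library. The lists give no depth, so weak sites cannot be told from missing ones.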

Other observations

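An AML-only site in Ccnf (chr17:24239969-24240899) overlapped an edge of the microRNA hairpin Mir6965 of the RefSeq table (chr17:24240884-24240947). Most of the hairpin lay outside the site. Lsp1, which encodes a leukocyte actin-binding protein, held 2 AML-only sites in 1.61 kb and no myeloid site; it was named after its values were seen.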
